A study of Mus musculus with 20 samples.

Results

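Sustained culture in a 3D collagen gel was compared with sustained 2D culture, using 8 of the 20 libraries of the series and all 18012 genes with values. The cells came from collagenase-digested lungs of normal male C57BL/6 mice and received no chemical treatment. The 4 libraries labelled 3D-3D come from cells held in collagen hydrogels for 4 days and then for 2 more days in the same condition. The 4 libraries labelled 2D-2D come from cells kept in 2D culture for both periods. The other cultured groups had the same 4 days and 2 days but changed condition between them (2D-3D and 3D-2D, 4 libraries each), and 4 libraries of sorted cells were not used here. The labels name no cell sort for the cultures, so each library holds RNA of whatever cells of the digest were alive after culture. Nothing in the labels says that replicates are separate mice, so the spread between them may be technical.

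Fibroblasts on a stiff flat surface pull against it through focal adhesions, clusters of integrins that tie the matrix to actin stress fibres. When actin is assembled, the coactivator Mkl1 is freed from actin monomers and works with serum response factor (SRF) on genes that hold a promoter element called the CArG box, many of which encode contractile proteins. In parallel YAP and TAZ enter the nucleus and bind TEAD factors. Fibroblasts that gain stress fibres and smooth muscle actin are called myofibroblasts, the main source of collagen in lung scars. A collagen gel is far softer than culture plastic and surrounds the cell on all sides.

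The 8 libraries held between 19.77 and 20.33 M counts. After a filter on low counts, 13704 genes were tested in one fit of the 16 cultured libraries with edgeR's quasi-likelihood test. A gene is called where its Benjamini-Hochberg adjusted p is below 0.05. Levels are CPM, read counts brought to a common library size after TMM scaling, a scaling that takes most genes to be alike between libraries. Library values are given in the order of replicates 1 to 4, and changes as log2 fold change ± SE, 3D-3D minus 2D-2D, with n = 4 libraries per group. Of all tested genes 73.5% were called, 38.6% higher and 34.9% lower in 3D-3D, and the median change of all tested genes was 0.06. A call alone is therefore common here. At least 2-fold higher were 18.0% and at least 2-fold lower 10.7%, and the counts of each gene list below are to be read against these shares. The libraries of both groups did not overlap for 34.2% of tested genes with 3D-3D on top and 31.3% with 3D-3D below. Scaled by library size alone, 7289 genes were higher and 2996 lower, against 5294 and 4784 with TMM, and the median of all genes moved up by 0.32. Replicate 3 of 3D-3D stood apart, with a chi-square value per degree of freedom of 32.62 to 39.31 against the other 3D-3D libraries, which reached 10.78 to 17.24 among themselves.

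**Figure D1:**
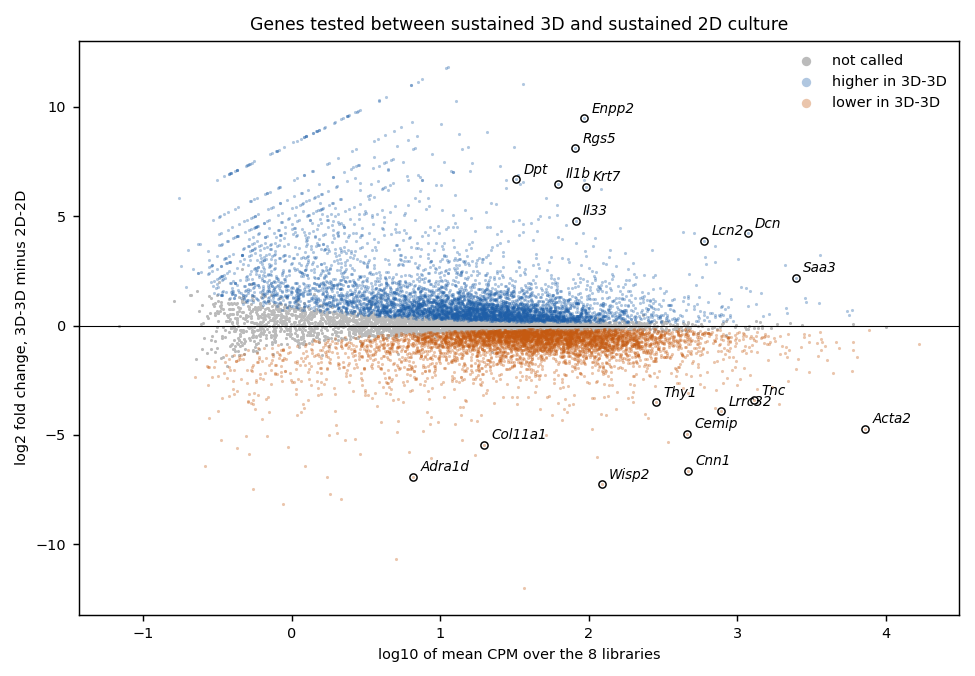
Each point is one of 13704 tested genes, placed by the log10 of its mean CPM over the 8 libraries and by its log2 fold change between 3D-3D and 2D-2D. Blue and orange points are genes called higher and lower in 3D-3D, grey points are not called, and circles mark some genes named in the text, such as Cnn1 at -6.64 and Enpp2 at 9.49.

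The contractile genes were lower in 3D-3D without exception. All 18 of 18 tested members were called lower, each by at least 2-fold, and the median of the list was -2.69. Acta2, the smooth muscle actin of myofibroblasts, stood at 14221, 14181, 14702 and 13017 CPM in the 2D-2D libraries and at 817, 536, 339.8 and 449 CPM in the 3D-3D libraries. Even the highest 3D-3D library lay far below the lowest 2D-2D library, and replicate 3 was the lowest of its group. The change was -4.71 ± 0.20, at an edgeR adjusted p of 4.39e-14. Cnn1, which encodes the actin-binding calponin, stood at 1006, 987, 919 and 793 CPM in the 2D-2D libraries and at 14.5, 9.84, 6.40 and 6.21 CPM in the 3D-3D libraries. Its groups were further apart than those of Acta2 (-6.64 ± 0.22), and the 3D-3D libraries 3 and 4 were again the lowest. Lmod1, an actin nucleator of smooth muscle, changed by -6.03 ± 0.17, and Actg2, the enteric smooth muscle actin, by -5.30 ± 0.21. Myh11, the smooth muscle myosin heavy chain, went from 127 ± 12.1 to 6.43 ± 2.04 CPM (mean ± SD). The intermediate filament gene Des (-1.96 ± 0.13) and the myosin activating kinase gene Mylk (-1.47 ± 0.10) changed less. Members of the list took 2.72 to 2.86% of all counts in 2D-2D and 0.312 to 0.474% in 3D-3D. In RNA of whole cultures, fewer cells of a type and less RNA per cell cannot be told apart, here and in all results that follow.

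The regulators of these genes were also lower. Mkl1, the actin-sensing coactivator (also called MRTF-A), stood at 449, 469, 516 and 500.3 CPM in the 2D-2D libraries and at 99.2, 90.4, 107 and 80.3 CPM in the 3D-3D libraries. All 3D-3D values lay below all 2D-2D values (-2.36 ± 0.10). Srf itself changed by -1.52 ± 0.08 and the LIM-domain cofactors Fhl1 and Fhl2 by -3.26 ± 0.13 and -2.27 ± 0.19. The related coactivator Mkl2 changed much less (-0.43 ± 0.10) and was not called when scaled by library size alone. The suppressor Scai, which binds Mkl1 in the nucleus, was the only one of the 8 tested regulators that was higher (1.22 ± 0.23, from 2.46 ± 0.739 to 5.73 ± 0.991 CPM), whereas 6 were lower.

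Promoters of the contractile and actin genes were searched for the CArG box in RefSeq sequence of GRCm38.p6, on both strands. The search covered the 250 bases before each start that the promoter windows use. Such a start can lie inside the annotated extent of its gene, as for Acta2 and Amotl2 below. A strict match (CC, then 6 bases of A or T, then GG) stood in 1.42% of the 10841 tested genes with a window. It was found for 3 of 15 contractile genes with a window (Cnn2, Ldb3 and Myl9) and for 4 of 15 genes of actin and focal adhesions (Actg1, Fermt2, Lima1 and Vcl). Among genes at least 2-fold lower in 3D-3D the share was 3.47%, and among genes at least 2-fold higher 1.75%. With 1 of the 6 central bases allowed to be G or C, the match is common (9.44% of all tested genes) and adds Acta2 among the contractile genes. A match is a description of letters, and binding was not measured. The windows of 4 genes that were lower in 3D-3D are shown because they hold such matches. Each runs 5′ to 3′ on the strand of the gene, and capitals mark the match:
Acta2 (chr19:34255374-34255623, minus strand): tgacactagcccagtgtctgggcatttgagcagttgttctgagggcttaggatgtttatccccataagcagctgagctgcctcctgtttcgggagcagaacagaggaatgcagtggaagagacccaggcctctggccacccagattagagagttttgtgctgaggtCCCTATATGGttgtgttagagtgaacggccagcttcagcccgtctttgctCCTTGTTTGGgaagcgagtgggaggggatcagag
Myl9 (chr2:156775214-156775463, plus strand): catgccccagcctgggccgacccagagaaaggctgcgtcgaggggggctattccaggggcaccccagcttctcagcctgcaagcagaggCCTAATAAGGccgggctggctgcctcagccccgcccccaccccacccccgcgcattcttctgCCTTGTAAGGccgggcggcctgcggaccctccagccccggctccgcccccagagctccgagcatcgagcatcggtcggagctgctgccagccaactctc
Cnn2 (chr10:79988350-79988599, plus strand): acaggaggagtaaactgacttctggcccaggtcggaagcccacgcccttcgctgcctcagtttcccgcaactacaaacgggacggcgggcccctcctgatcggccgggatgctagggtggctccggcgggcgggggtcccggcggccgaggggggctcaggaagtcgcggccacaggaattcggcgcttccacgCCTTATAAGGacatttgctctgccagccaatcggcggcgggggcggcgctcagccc
Actg1 (chr11:120348496-120348745, minus strand): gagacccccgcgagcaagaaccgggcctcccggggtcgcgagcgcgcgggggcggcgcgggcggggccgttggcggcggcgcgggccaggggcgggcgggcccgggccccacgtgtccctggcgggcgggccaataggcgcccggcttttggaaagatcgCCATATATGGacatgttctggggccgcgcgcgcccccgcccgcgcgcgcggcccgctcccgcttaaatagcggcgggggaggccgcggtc

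Acta2 holds 2 relaxed matches, whose first bases lie 84 and 34 bases before the start used. The annotated extent of Acta2 reaches to base 34255585, so both matches lie inside it. Myl9 encodes the regulatory light chain of smooth muscle myosin, and changed by -3.75 ± 0.17. Its window holds a strict and a relaxed match (161 and 99 bases before the start used). The window runs into the extent of Myl9, which begins at base 156775408, but both matches lie before that base. Cnn2, a calponin that is also found outside muscle, fell from 1425 ± 90.8 to 271 ± 39.0 CPM (-2.40 ± 0.11) and carries 1 strict match at 56 bases. Actg1, the cytoplasmic gamma actin, changed by -1.43 ± 0.07 and carries 1 strict match at 90 bases.

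Genes of the actin skeleton and focal adhesions were lower in 21 of 22 cases and higher in 0, with a median of -1.28. Scaled by library size alone, 1 of them was higher. Zyx, whose product zyxin sits at adhesions under tension, stood at 2227, 2333, 2663 and 2325 CPM in the 2D-2D libraries and at 303, 313, 368 and 293 CPM in the 3D-3D libraries. The 2 groups were far apart and each was tight (-2.90 ± 0.10, edgeR adjusted p = 1.38e-15). The filamin genes Flna and Flnc, whose products crosslink actin, changed by -2.01 ± 0.08 and -2.69 ± 0.10. Vinculin (Vcl, -1.93 ± 0.09) and parvin alpha (Parva, -1.77 ± 0.08) moved the same way. Paxillin, encoded by Pxn, was the member that did not pass the test (0.04 ± 0.07, edgeR adjusted p = 0.658), at 207 ± 6.71 CPM in 2D-2D and 212 ± 9.53 CPM in 3D-3D. Pxn was called higher with library size alone (0.35). The non-muscle myosin gene Myh9 (-1.62 ± 0.08) and the kinase gene Rock2 (-0.96 ± 0.14) were lower, while the related Rock1 was higher (0.49 ± 0.13) with overlapping libraries.

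The integrins split by chain. Of 20 tested genes for integrins and other matrix receptors 8 were higher and 7 lower (10 and 3 with library size alone), with a median of 0.16. Itga5, the fibronectin-binding alpha chain, stood at 1164, 1285, 1337 and 1285 CPM in the 2D-2D libraries and at 300.4, 280.1, 316 and 302 CPM in the 3D-3D libraries. No library of one group reached the other group (-2.08 ± 0.10). Itga8, a chain of the lung mesenchyme that binds nephronectin, also fell (-2.56 ± 0.20), and so did the gene of its ligand, Npnt (-2.20 ± 0.12). The laminin-binding chains Itga3 (1.62 ± 0.19) and Itga6 (1.502 ± 0.16) and the beta chain Itgb3 (1.79 ± 0.15) were higher. Ddr2, a receptor for fibrillar collagen, stood at 117 ± 18.1 and 121 ± 18.8 CPM and did not pass the test (0.06 ± 0.11, edgeR adjusted p = 0.660). Ddr2 was called higher with library size alone (0.38).

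**Figure D2:**
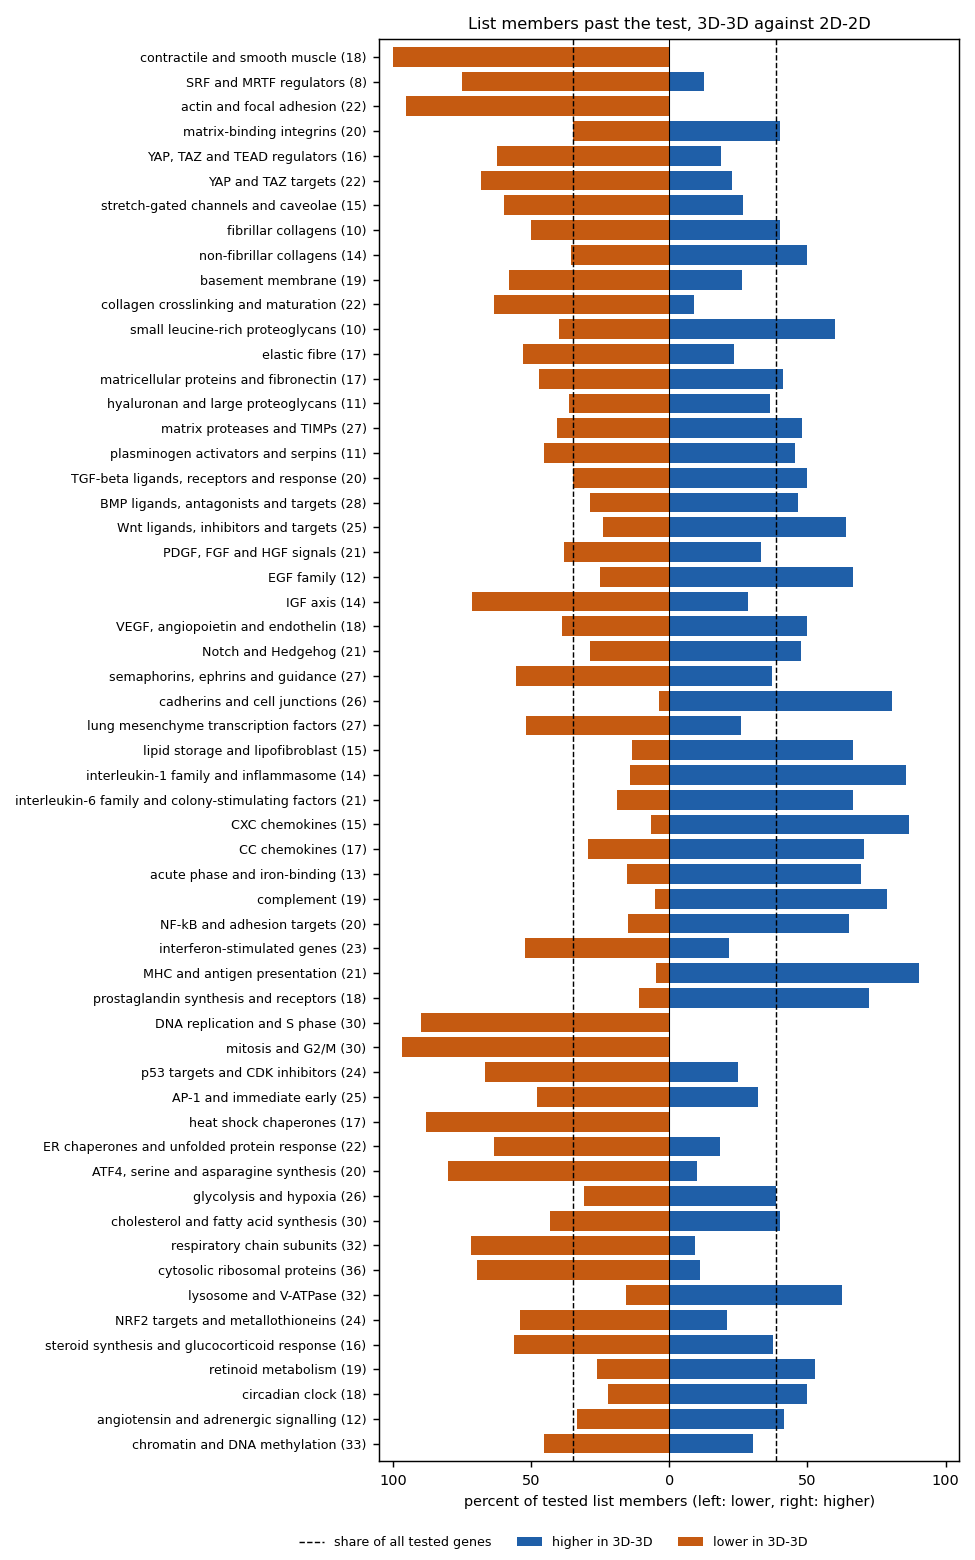
Each bar shows the percent of tested members of one gene list that were called higher (right, blue) or lower (left, orange) in 3D-3D, with the number of tested members in brackets. Dashed lines mark the same shares over all tested genes, 38.6% higher and 34.9% lower. The contractile list reaches 100% on the left, and among the lists drawn those of CXC chemokines, interleukin-1 and antigen presentation extend furthest to the right.

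The machinery of YAP and TAZ was lower at the level of the DNA-binding partners. Tead1 changed by -2.33 ± 0.15 and Tead3 by -1.68 ± 0.08, against -0.72 ± 0.08 for Yap1 and -0.44 ± 0.07 for Wwtr1, which encodes TAZ. With library size alone, Wwtr1 was not called. Vgll3, another cofactor of TEAD, stood at 170.4, 175, 189.6 and 226 CPM in the 2D-2D libraries and at 23.4, 18.4, 18.3 and 16.7 CPM in the 3D-3D libraries. It fell in every 3D-3D library (-3.31 ± 0.14), while its relative Vgll4, a repressor of TEAD, was higher (1.23 ± 0.09). Of 16 regulators 10 were lower and 3 higher, or 9 and 6 with library size alone. The kinases of the Hippo pathway, which keep YAP out of the nucleus, were mixed: Stk3 was higher (1.26 ± 0.12), Lats2 lower (-1.39 ± 0.10) and Lats1 did not pass the test (0.15 ± 0.12). Lats1 was called higher with library size alone (0.47).

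Of 22 targets 15 were lower and 5 higher, with a median of -1.18. Amotl2, a scaffold that binds YAP, stood at 455, 483, 478 and 497 CPM in the 2D-2D libraries and at 33.1, 24.0, 26.0 and 20.1 CPM in the 3D-3D libraries. The lowest 2D-2D library was far above the highest 3D-3D library (-4.21 ± 0.22). Crim1, a membrane protein that binds BMPs (-3.36 ± 0.11), the receptor tyrosine kinase gene Axl (-2.06 ± 0.07) and the tissue factor gene F3 (-2.33 ± 0.11) were also lower. Higher were Igfbp3 (2.65 ± 0.22), Tgfb2 (1.85 ± 0.15), Nt5e (1.29 ± 0.10), Gadd45a (1.00 ± 0.11) and Wwc1 (0.64 ± 0.23), which differ from the rest of the list in direction. The letters GGAATG, a core of TEAD sites, stood on either strand in 12.9% of tested genes' windows and in those of 7 of 16 targets with a window (Ajuba, Amotl2, Ankrd1, Axl, Crim1, Cyr61 and Ptpn14). Among genes at least 2-fold lower the share was 17.5% and among those at least 2-fold higher 13.2%. Of the contractile genes 6 of 15 held it. The windows of 3 targets that fell are shown in the same format, with the match in capitals (CATTCC is the other strand):
Ankrd1 (chr19:36119845-36120094, minus strand): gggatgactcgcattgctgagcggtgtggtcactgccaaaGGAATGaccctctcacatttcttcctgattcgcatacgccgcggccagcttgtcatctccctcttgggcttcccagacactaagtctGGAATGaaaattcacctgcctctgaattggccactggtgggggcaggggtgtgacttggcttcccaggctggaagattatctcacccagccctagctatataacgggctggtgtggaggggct
Amotl2 (chr9:102717554-102717803, plus strand): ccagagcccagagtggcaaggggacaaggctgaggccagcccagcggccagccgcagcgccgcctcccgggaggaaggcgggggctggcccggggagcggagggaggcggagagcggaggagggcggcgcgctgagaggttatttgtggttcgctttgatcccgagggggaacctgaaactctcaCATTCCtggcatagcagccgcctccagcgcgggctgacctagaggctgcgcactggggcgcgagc
Cyr61 (chr3:145649986-145650235, minus strand): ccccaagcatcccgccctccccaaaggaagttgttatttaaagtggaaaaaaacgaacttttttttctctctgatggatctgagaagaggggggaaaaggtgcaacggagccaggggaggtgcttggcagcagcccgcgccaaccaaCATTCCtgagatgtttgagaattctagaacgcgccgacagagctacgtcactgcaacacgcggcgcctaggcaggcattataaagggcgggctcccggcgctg

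Ankrd1, a nuclear ankyrin repeat protein, carries 2 matches (210 and 123 bases before the start) and changed by -3.97 ± 0.19. Amotl2 and Cyr61 carry 1 each, at 65 and 103 bases. The Amotl2 window lies wholly inside the annotated extent of that gene, which begins at base 102717091. Cyr61, a secreted matricellular protein, went from 1372 ± 68.9 to 224 ± 47.5 CPM (-2.62 ± 0.12).

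Channels opened by stretch and the proteins of caveolae, the membrane pits that flatten under tension, were lower in 9 of 15 cases. Cavin2, a coat protein of caveolae, changed by -3.30 ± 0.13, and Cav1, their main membrane protein, by -2.02 ± 0.16. Piezo1 was lower (-2.26 ± 0.13) and Piezo2 less so (-0.76 ± 0.17). The polycystin gene Pkd2 (1.66 ± 0.13) and the channel kinase gene Trpm7 (0.90 ± 0.14) were higher. The nuclear lamina gene Lmna, whose product scales with tissue stiffness, stood at 875, 904, 827 and 751 CPM in the 2D-2D libraries and at 297, 237, 215 and 254 CPM in the 3D-3D libraries. It was lower in each 3D-3D library (-1.74 ± 0.09), as were Lmnb1 (-1.65 ± 0.10) and the linker gene Sun2 (-0.89 ± 0.09).

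**Figure D3:**
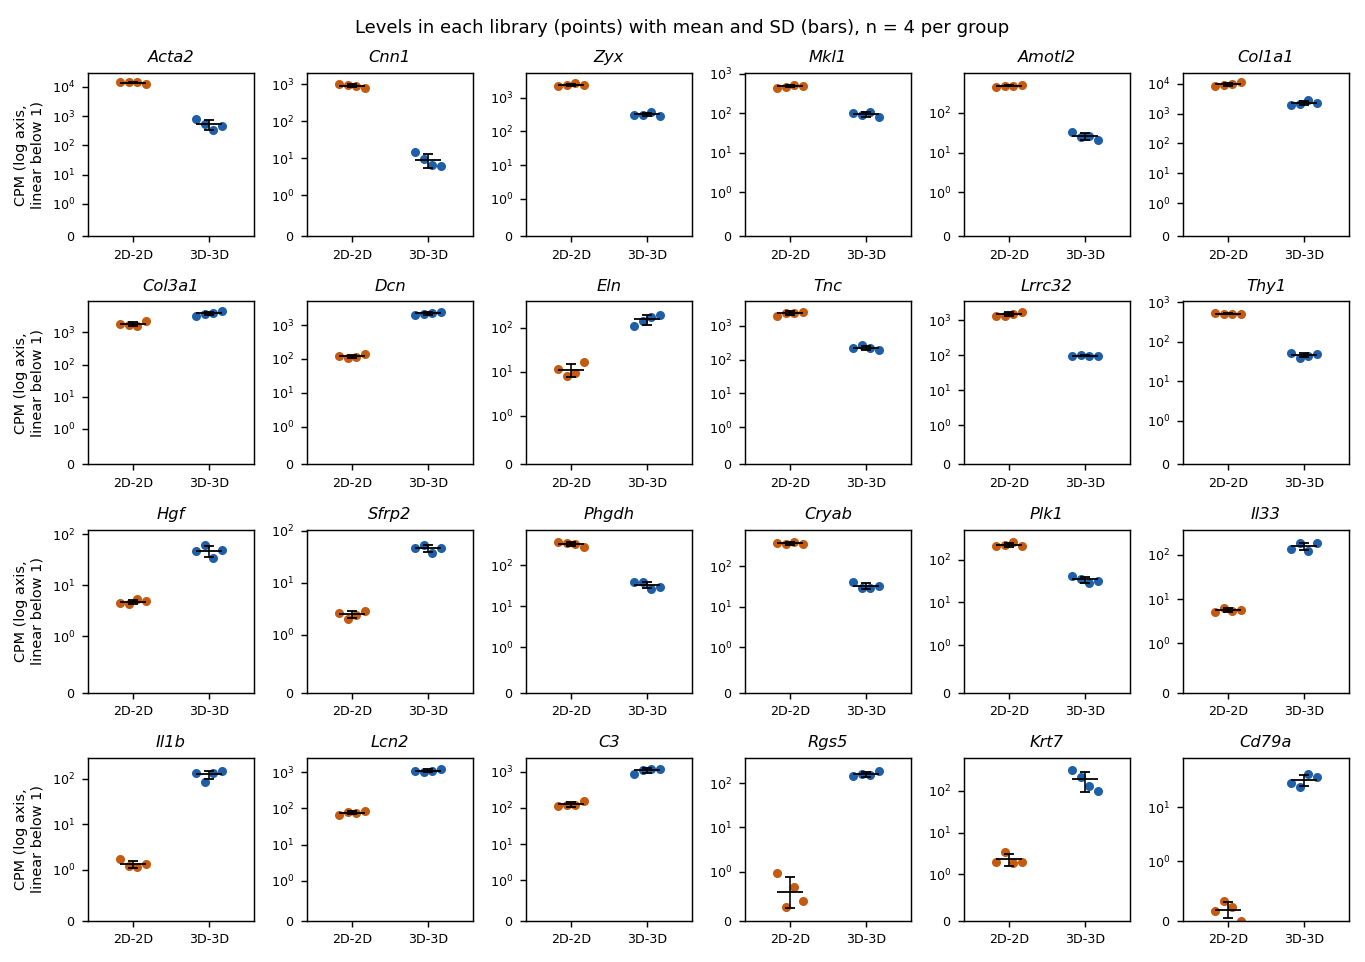
Each panel shows the level of one gene in CPM on a log axis that is linear below 1, with one point per library and bars for mean and SD (n = 4 per group). In all 24 panels the 2 groups do not overlap, and Krt7 has the widest relative spread in 3D-3D.

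Genes of the extracellular matrix changed in both directions, even within a family. Of 10 fibrillar collagen genes 5 were lower and 4 higher. Col1a1, which encodes the more abundant chain of type I collagen, stood at 8634, 8889, 9577 and 11220.4 CPM in the 2D-2D libraries and at 1995, 2117, 2851 and 2255 CPM in the 3D-3D libraries. Its libraries did not overlap and the 3D-3D level was lower (-2.06 ± 0.12). Col3a1, which forms thin fibrils with type I, stood at 1869, 1719.7, 1599 and 2289 CPM in the 2D-2D libraries and at 3330.3, 3797, 4029 and 4645 CPM in the 3D-3D libraries. Here the order was reversed, and every 3D-3D library was higher (1.08 ± 0.13). The type V chains parted, with Col5a2 at -1.94 ± 0.09 and Col5a3 at 2.06 ± 0.20. Col11a1, a fibril nucleator that is prominent in cartilage, was among the 10 largest falls of all genes (-5.44 ± 0.21).

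Among 14 non-fibrillar collagen genes 7 were higher and 5 lower. Col13a1, a transmembrane collagen, stood at 0.743, 0.557, 0.453 and 0.392 CPM in the 2D-2D libraries and at 44.0, 48.4, 67.6 and 61.2 CPM in the 3D-3D libraries. It was below 1 CPM in each 2D-2D library and far higher in each 3D-3D library (6.67 ± 0.21). Another transmembrane collagen gene, Col23a1, rose from 0.984 ± 0.331 to 46.7 ± 9.30 CPM (5.56 ± 0.22). Col15a1, a collagen of the zone beneath basement membranes, was higher too (3.08 ± 0.13), and Col8a1, a short-chain collagen of vessel walls, lower (-4.99 ± 0.23).

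Basement membrane genes were lower in 11 of 19 cases and higher in 5, with a median of -0.88. The type IV collagen chains Col4a1 and Col4a2 changed by -2.25 ± 0.11 and -2.65 ± 0.11, the proteoglycan gene Hspg2 by -2.65 ± 0.17 and the linker gene Nid2 by -4.02 ± 0.21. The epithelial laminin chain genes Lama3 (5.69 ± 0.42) and Lamb3 (5.34 ± 0.45) were higher. Markers of airway and basal epithelium moved with them, at 0.00412 to 0.00552% of counts in 2D-2D and 0.0465 to 0.148% in 3D-3D, and their part in this result was not tested.

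Collagen maturation was mostly lower, with 14 of 22 genes lower, 2 higher and a median of -0.71. With library size alone 12 were lower and 6 higher. The chaperone gene Serpinh1 changed by -1.23 ± 0.08, the procollagen peptidase gene Adamts2 by -2.09 ± 0.09 and the crosslinking enzyme gene Loxl2 by -1.24 ± 0.12. Lox, the founding member of that enzyme family, did not pass the test (-0.42 ± 0.19, edgeR adjusted p = 0.0592). Adamts3, which trims the same procollagens as Adamts2, went the other way (4.53 ± 0.23, from 1.80 ± 0.200 to 41.7 ± 8.58 CPM).

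Small leucine-rich proteoglycans, which coat collagen fibrils, had a median change of 1.46, with 6 of 10 higher and 4 lower. Dcn, decorin, stood at 119.7, 110.2, 113 and 141 CPM in the 2D-2D libraries and at 2023, 2169.8, 2274 and 2489.5 CPM in the 3D-3D libraries. The gap between the groups was wide and the 3D-3D libraries were alike (4.21 ± 0.12, edgeR adjusted p = 1.40e-16). Lumican (Lum, 3.61 ± 0.22) and osteoglycin (Ogn, 1.94 ± 0.29) were also higher. Biglycan (Bgn, -0.78 ± 0.10) and prolargin (Prelp, -2.32 ± 0.11) were lower.

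The elastic fibre genes did not move together. Eln, elastin itself, stood at 11.3, 7.74, 9.28 and 16.2 CPM in the 2D-2D libraries and at 108, 140.4, 171 and 196 CPM in the 3D-3D libraries. Every 3D-3D library was above every 2D-2D library (3.79 ± 0.21), and the microfibril genes Mfap4 (3.17 ± 0.20) and Mfap2 (2.03 ± 0.10) were higher with it. The scaffold genes Fbn1 (-1.97 ± 0.12), Fbln5 (-3.28 ± 0.13) and Fbln2 (-2.43 ± 0.11) were lower. Over the list 4 of 17 were higher and 9 lower, or 7 and 9 with library size alone.

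Of 17 genes for matricellular proteins and fibronectin 7 were higher and 8 lower, and 9 and 7 when scaled by library size alone. Tnc, tenascin C, a glycoprotein of wounds and tendons, stood at 1986, 2396, 2495 and 2674 CPM in the 2D-2D libraries and at 221, 265, 215 and 188 CPM in the 3D-3D libraries. It was lower in all 3D-3D libraries (-3.42 ± 0.12). Wisp2, a CCN family protein, went from 244 ± 13.3 to 1.58 ± 0.757 CPM (-7.26 ± 0.31). Thbs1, which activates latent TGF-beta, also fell (-2.12 ± 0.10). Sparcl1, an anti-adhesive relative of Sparc, was higher (2.90 ± 0.12), whereas Sparc was lower (-1.10 ± 0.08). Cemip, a protein that drives hyaluronan breakdown, stood at 790.3, 841, 851 and 1067 CPM in the 2D-2D libraries and at 34.6, 33.5, 22.5 and 24.9 CPM in the 3D-3D libraries. It was lower in each 3D-3D library (-4.94 ± 0.19), while the synthase gene Has2 was higher (0.49 ± 0.15) with overlapping libraries.

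Matrix proteases and their inhibitors were mixed, with 13 of 27 higher and 11 lower. The gelatinase gene Mmp2 (2.85 ± 0.10), the stromelysin gene Mmp3 (1.74 ± 0.10) and the cathepsin K gene Ctsk (1.67 ± 0.12) were higher. The aggrecanase gene Adamts5 was lower (-3.55 ± 0.18). Mmp9, a gelatinase of macrophages and neutrophils, went from 483 ± 15.8 to 1632 ± 328 CPM (1.75 ± 0.12). Serpina3n, a secreted serine protease inhibitor, rose by 4.25 ± 0.17 and Serpine2 by 3.33 ± 0.12.

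TGF-beta, the main driver of myofibroblasts, is stored in the matrix in latent form. Of 20 genes of its ligands, receptors and response 10 were higher and 7 lower. Lrrc32, also called GARP, a surface anchor of latent TGF-beta, stood at 1287, 1334, 1523 and 1702 CPM in the 2D-2D libraries and at 95.9, 100.3, 96.1 and 96.6 CPM in the 3D-3D libraries. The 3D-3D libraries were alike and all far lower (-3.91 ± 0.11). Among the ligands Tgfb3 was lower (-1.39 ± 0.09), Tgfb2 higher (1.85 ± 0.15) and Tgfb1 slightly lower (-0.37 ± 0.09), the last of these not called when scaled by library size alone. The receptor genes Tgfbr1 (1.56 ± 0.15) and Tgfbr2 (0.86 ± 0.09) were higher, and so was Tgfbi, a secreted target (3.15 ± 0.09). Of 28 genes of BMP signalling 13 were higher and 8 lower, with the ligand genes Bmp2 (2.50 ± 0.14) and Bmp5 (3.23 ± 0.18) and the antagonist gene Grem1 (1.22 ± 0.13) among those higher, and Gdf6 lower (-3.35 ± 0.17).

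Wnt genes were higher in 16 of 25 cases and lower in 6, with a median of 0.89. Sfrp2, a secreted modulator of Wnt that marks matrix-producing fibroblasts, stood at 2.63, 2.00, 2.38 and 2.91 CPM in the 2D-2D libraries and at 46.9, 52.7, 37.1 and 45.6 CPM in the 3D-3D libraries. No 2D-2D library came near the 3D-3D libraries (4.20 ± 0.16). Its relative Sfrp1 was lower (-1.26 ± 0.11). Axin2, a general readout of beta-catenin activity, rose from 0.576 ± 0.312 to 6.36 ± 1.06 CPM (3.45 ± 0.33), and the ligand genes Wnt11 (1.93 ± 0.21), Wnt4 (1.80 ± 0.14) and Wnt5a (0.86 ± 0.11) were higher.

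Several growth factors that act on epithelium were higher. Hgf, the hepatocyte growth factor that fibroblasts release to epithelial cells, stood at 4.46, 4.18, 5.32 and 4.87 CPM in the 2D-2D libraries and at 46.7, 61.8, 33.8 and 49.1 CPM in the 3D-3D libraries. All the 3D-3D libraries were higher, with replicate 3 the lowest of them (3.35 ± 0.20). Nrg1 (2.47 ± 0.13) and Fgf10 (1.21 ± 0.12), further mesenchymal signals to epithelium, were also higher, while Fgf7, of the same kind, was slightly lower (-0.33 ± 0.14) with overlapping libraries. Its call was lost without 3D-3D replicate 3 (-0.19), without 2D-2D replicate 3 (-0.31) and without 2D-2D replicate 4 (-0.27). In the EGF family 8 of 12 genes were higher and 3 lower. The receptor genes Pdgfra (1.14 ± 0.10) and Pdgfrb (-1.30 ± 0.10) moved in opposite directions. In the wider list of PDGF, FGF and HGF signals 7 were higher and 8 lower of 21, and 8 and 6 when scaled by library size alone. In the IGF axis 10 of 14 genes were lower, with the receptor gene Igf1r at -1.84 ± 0.11 and Igf1 itself higher (0.66 ± 0.12). Vegfd, a lymphatic growth factor, fell from 107 ± 15.3 to 6.28 ± 0.977 CPM (-4.09 ± 0.28), while Vegfa was higher (0.98 ± 0.13). The guidance genes Slit3 (-2.78 ± 0.17), Slit2 (-2.11 ± 0.15) and Sema3d (-3.08 ± 0.17) were lower.

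Markers that tell lung fibroblast states apart did not all move one way. The pan-fibroblast list took 1.93 to 2.41% of counts in 2D-2D and 1.38 to 1.71% in 3D-3D, and all its 14 members were tested, with 5 higher and 9 lower. Col1a1 weighs heavily in this share, with means of 9580 CPM in 2D-2D and 2304 CPM in 3D-3D. Col3a1, also in the list, went the other way, from 1869 to 3950 CPM. The median of the list was lower too (-0.82), with 6 members at least 2-fold lower and 4 at least 2-fold higher. Thy1, a surface glycoprotein used to sort fibroblasts, stood at 532, 516, 517 and 516 CPM in the 2D-2D libraries and at 51.0, 39.5, 44.2 and 49.6 CPM in the 3D-3D libraries. It fell in every 3D-3D library (-3.50 ± 0.11). S100a4, once used as a fibroblast marker, was lower as well (-3.80 ± 0.16). Among adventitial markers Dpt, dermatopontin, rose from 0.618 ± 0.302 to 64.6 ± 14.4 CPM (6.69 ± 0.22), Ly6a from 7.08 ± 1.26 to 118 ± 28.2 CPM (4.06 ± 0.19) and Cd34 from 1.42 ± 0.428 to 19.8 ± 4.26 CPM (3.80 ± 0.22). Igfbp6 (-1.97 ± 0.15) and Mfap5 (-1.01 ± 0.13), of the same list, were lower. Among alveolar markers Spon1 (5.83 ± 0.20) and Mfap4 were higher, Npnt and Itga8 lower, and Cdh11 did not pass the test (-0.03 ± 0.11). Markers of fibrosis-associated fibroblasts also split, with Cthrc1 (2.06 ± 0.15) and Postn (1.36 ± 0.16) higher and Adam12 (-1.42 ± 0.11) lower. Transcription factors of lung mesenchyme were lower in 14 of 27 cases and higher in 7, with Foxf1 at -1.14 ± 0.14 and Prrx1 at -0.90 ± 0.08. Scaled by library size alone, 12 were higher and 10 lower, so that the majority turned.

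Pericyte markers had 9 of 12 members higher and 0 lower. Rgs5, a regulator of G-protein signals that marks pericytes, stood at 0.971, 0.278, 0.679 and 0.392 CPM in the 2D-2D libraries and at 143, 165, 149 and 188 CPM in the 3D-3D libraries. It was low in 2D-2D and high in each 3D-3D library (8.11 ± 0.20). The potassium channel genes Kcnj8 (2.79 ± 0.16) and Abcc9 (4.04 ± 0.29), whose products form one channel, were higher too, whereas Cspg4 (-0.04 ± 0.28) and Notch3 (0.29 ± 0.20) did not pass the test. Notch3 was called higher with library size alone (0.61). Enpp2, autotaxin, the enzyme that makes lysophosphatidic acid, was among the 10 largest rises, from 0.254 ± 0.149 to 187 ± 35.8 CPM (9.49 ± 0.28).

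Inflammatory genes were higher in most families. Il33, an alarmin of stromal cells, stood at 5.03, 6.35, 5.43 and 5.83 CPM in the 2D-2D libraries and at 139.6, 182, 124 and 188 CPM in the 3D-3D libraries. The groups did not overlap (4.80 ± 0.17, edgeR adjusted p = 4.01e-15). Il1b, interleukin-1 beta, stood at 1.71, 1.23, 1.19 and 1.34 CPM in the 2D-2D libraries and at 131, 84.7, 133 and 143 CPM in the 3D-3D libraries. Replicate 2 was the lowest 3D-3D library and still far above 2D-2D (6.48 ± 0.19). In the interleukin-1 family 12 of 14 genes were higher and 2 lower, with a median of 1.35. Interleukin-6 (0.19 ± 0.24, edgeR adjusted p = 0.465) and the prostaglandin synthase gene Ptgs2 (0.24 ± 0.13, edgeR adjusted p = 0.105) did not pass the test, and Csf1, the macrophage growth factor, was lower (-2.72 ± 0.09). Ptgs2 was called higher with library size alone (0.56).

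Of 15 genes for CXC chemokines and their receptors 13 were higher and 1 lower, with a median of 1.70. Ppbp, a neutrophil-attracting chemokine first found in platelets, stood at 38.0, 43.3, 46.6 and 43.0 CPM in the 2D-2D libraries and at 854, 876, 839 and 738 CPM in the 3D-3D libraries. The 3D-3D libraries lay close together, far above 2D-2D (4.27 ± 0.15). The neutrophil attractants Cxcl3 (2.82 ± 0.16) and Cxcl5 (2.51 ± 0.16) and the receptor gene Cxcr4 (4.32 ± 0.19) were also higher. Cxcl10, induced by interferon, was the member that was lower (-1.86 ± 0.36). Among CC chemokines Ccl24 (4.32 ± 0.24) and Ccl9 (1.19 ± 0.10) were higher and Ccl12 (-2.66 ± 0.15) and Ccl2 (-0.93 ± 0.21) lower.

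Acute phase and iron-binding genes had 9 of 13 higher and 2 lower, with a median of 1.59. Lcn2, lipocalin 2, which withholds iron from bacteria, stood at 66.8, 78.5, 74.2 and 85.1 CPM in the 2D-2D libraries and at 1125, 1031, 1068 and 1275 CPM in the 3D-3D libraries. All 3D-3D libraries were alike and high (3.88 ± 0.14). The serum amyloid gene Saa3 (2.19 ± 0.15) and the copper-binding ferroxidase gene Cp (2.81 ± 0.13) rose as well. Complement genes were higher in 15 of 19 cases, with the central component C3 at 112, 119, 119 and 149.9 CPM in the 2D-2D libraries and at 877, 1085, 1202 and 1183 CPM in the 3D-3D libraries. The 3D-3D libraries were all above 2D-2D (3.12 ± 0.11), and so were those of Clu, clusterin (3.65 ± 0.17). In antigen presentation 19 of 21 genes were higher and 1 lower, with a median of 0.94. The class I light chain gene B2m changed by 0.97 ± 0.08 and H2-K1 by 1.21 ± 0.12. The invariant chain gene Cd74, of class II, rose from 3.62 ± 0.175 to 119 ± 34.4 CPM (5.04 ± 0.20).

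Interferon-stimulated genes stood against the other inflammatory lists, with 12 of 23 lower, 5 higher and a median of -0.38. Isg15, a ubiquitin-like protein, changed by -2.60 ± 0.16, Usp18, which removes it, by -1.72 ± 0.18, and the restriction factor gene Bst2 by -1.02 ± 0.10. Scaled by library size alone, 6 were lower and 7 higher.

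Markers of immune cells moved beside these lists. The macrophage list took 0.879 to 1.09% of counts in 2D-2D and 1.73 to 2.07% in 3D-3D, with 22 of 25 members higher and a median of 0.94. Adgre1 (F4/80) changed by 1.03 ± 0.08 and Csf1r by 0.94 ± 0.11, while Cd68 did not pass the test (0.06 ± 0.09). Cd68 was called higher with library size alone (0.38). Chil3, a chitinase-like protein of lung macrophages, rose from 5.08 ± 0.415 to 191 ± 70.5 CPM (5.23 ± 0.22). Neutrophil markers took 0.0530 to 0.0578% in 2D-2D and 0.201 to 0.285% in 3D-3D, although 8 of 13 members with values passed the filter and the defining marker Ly6g stood at 0.0143 ± 0.0286 and 0.290 ± 0.336 CPM. That list includes Mmp9 and Mmp8, which macrophages also make, and Mmp9 alone holds most of its counts in both groups. Ltf, another member, is also in the airway and basal epithelial list. The share of this list is therefore not a measure of neutrophils. Lymphocyte markers took 0.000783 to 0.00108% and 0.00727 to 0.0109%, with 8 of 16 members tested. Cd79a, a chain of the B cell receptor, stood at 0.171, 0.334, 0.226 and 0 CPM in the 2D-2D libraries and at 28.7, 24.4, 41.9 and 36.3 CPM in the 3D-3D libraries. It was near 0 in 2D-2D and present in each 3D-3D library. The T cell gene Cd3e stood at 0 ± 0 and 0.0337 ± 0.0225 CPM. The part of these cells in the inflammatory results was not tested.

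**Figure D4:**
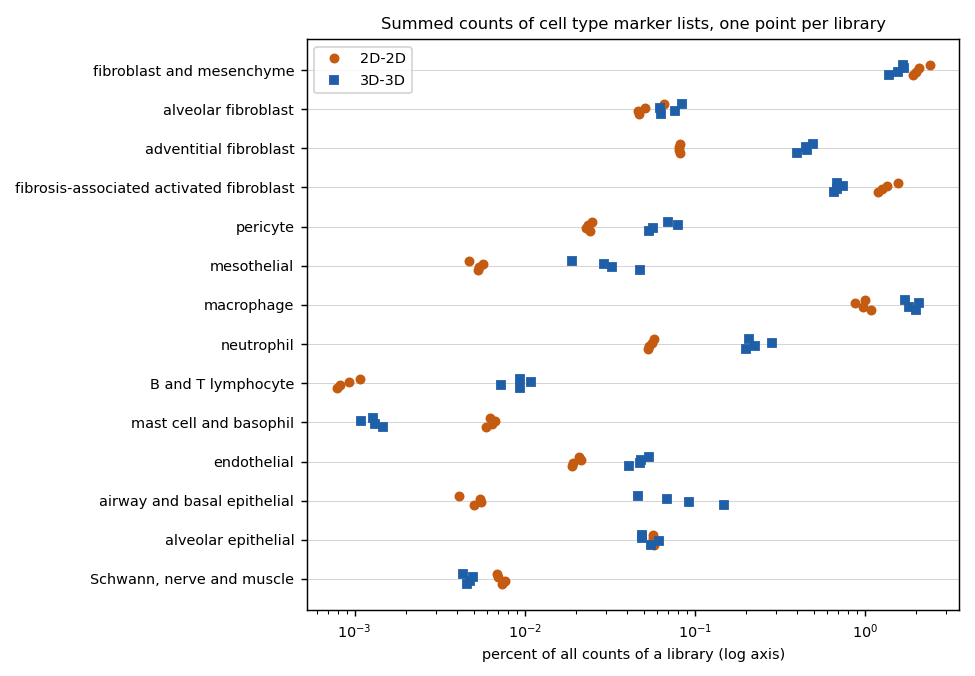
Each row shows the summed counts of one list of cell type markers as percent of all counts of a library, on a log axis, with circles for the 2D-2D and squares for the 3D-3D libraries (4 each). Airway and basal epithelial markers span 0.00412 to 0.00552% in 2D-2D and 0.0465 to 0.148% in 3D-3D. The fibroblast list, in which Col1a1 weighs heavily, is lower in 3D-3D.

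Airway epithelial and endothelial genes were higher in 3D-3D, and alveolar epithelial genes were divided. Of 24 airway and basal epithelial markers with values 18 passed the filter, and 10 had no count in any 2D-2D library. Krt7, a keratin of simple epithelium, stood at 1.94, 3.40, 1.92 and 1.96 CPM in the 2D-2D libraries and at 313, 216, 131 and 96.9 CPM in the 3D-3D libraries. The 2D-2D libraries were all low, while 3D-3D replicate 1 was the highest of its group and replicate 4 the lowest (6.35 ± 0.38). The basal keratin gene Krt15 had no count in 2D-2D and stood at 51.8, 15.8, 16.5 and 6.62 CPM in the 3D-3D libraries, at least 536-fold higher, taking 3 counts over the group as the floor. Krt6a, another basal keratin gene, was at least 515-fold higher by the same floor, and the water channel gene Aqp4 at least 359-fold. These bounds pool the libraries of a group, and Aqp4 stood at 37.4, 10.7, 11.2 and 1.49 CPM in the 3D-3D libraries. All 3 genes had their highest value in replicate 1, and without that library the bounds were 307-fold, 324-fold and 184-fold. Ltf, lactoferrin, had 2 counts in all in 2D-2D and stood at 152, 60.0, 60.9 and 17.0 CPM in 3D-3D. Of 18 tested alveolar epithelial markers 11 were higher and 5 lower, and the list took 0.0566 to 0.0577% of counts in 2D-2D and 0.0488 to 0.0620% in 3D-3D, ranges that overlap. In that list the surfactant protein gene Sftpb went from 0.705 ± 0.261 to 55.2 ± 33.4 CPM and Sftpc from 0.522 ± 0.265 to 10.97 ± 4.74 CPM. Among its lower members is Cav1, described above with the caveolae, which went from 96.7 ± 4.23 to 23.8 ± 5.03 CPM. Endothelial markers were higher in 19 of 22 cases, with Pecam1 (CD31) at 0.800, 0.891, 1.47 and 0.840 CPM in 2D-2D and 14.7, 16.1, 24.5 and 19.4 CPM in 3D-3D. All 3D-3D values of Pecam1 were above all 2D-2D values (4.21 ± 0.21). Among genes of cadherins and junctions the counts were 21 higher and 1 lower of 29 with values, of which 26 passed the filter. Epithelial Cdh1 (3.43 ± 0.21) and endothelial Cdh5 (3.50 ± 0.21) were higher, and the mesenchymal cadherin gene Cdh2 was lower (-1.87 ± 0.09).

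Of 12 mast cell and basophil markers with values 3 passed the filter, and they were divided (1 higher and 2 lower). Mcpt8, a basophil protease, fell from 33.5 ± 2.08 to 0.550 ± 0.444 CPM (-5.90 ± 0.24, and -6.61 without 3D-3D replicate 2), and Gata2, a factor of that lineage and of endothelium, changed by -2.95 ± 0.13, while the mast cell genes Cpa3 and Cma1 stood at 0.0421 ± 0.0280 and 0 ± 0 CPM in 2D-2D and 0.249 ± 0.139 and 0.331 ± 0.0770 CPM in 3D-3D.

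Genes of the cell cycle were lower. Of 30 genes of DNA replication 27 were lower and 0 higher (median -1.53), and of 30 genes of mitosis 29 were lower and 0 higher (median -1.43). Plk1, a kinase that runs mitosis, stood at 211, 216, 252 and 205 CPM in the 2D-2D libraries and at 42.0, 34.9, 29.1 and 31.1 CPM in the 3D-3D libraries. All 3D-3D libraries were lower and close together (-2.69 ± 0.10). The mitotic transcription factor gene Foxm1 changed by -2.54 ± 0.10, the helicase subunit gene Mcm5 by -1.94 ± 0.13 and cyclin D1 (Ccnd1) by -1.27 ± 0.10. The inhibitor gene Cdkn1a (p21), a p53 target, was also lower (-1.20 ± 0.17), and of the p53 targets and CDK inhibitors 16 of 24 were lower. The inhibitor genes Cdkn1c (2.41 ± 0.17) and Cdkn1b (0.58 ± 0.14) were higher.

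Genes for the synthesis of serine and asparagine were lower. Phgdh, the entry enzyme of serine synthesis, stood at 368, 351, 336 and 278 CPM in the 2D-2D libraries and at 39.2, 38.0, 26.6 and 29.9 CPM in the 3D-3D libraries. No 3D-3D library reached even the lowest 2D-2D library (-3.31 ± 0.12, edgeR adjusted p = 4.14e-15). The next enzyme genes Psat1 (-3.04 ± 0.12) and Psph (-1.60 ± 0.12), asparagine synthetase (Asns, -2.70 ± 0.12) and the mitochondrial folate enzyme gene Shmt2 (-2.17 ± 0.09) were lower as well. In the list of ATF4 targets and of serine and asparagine synthesis 16 of 20 genes were lower and 2 higher, with a median of -1.5. Atf4 itself changed by -0.33 ± 0.07 and was not called when scaled by library size alone. The amino acid transporter gene Slc7a5 changed by -2.65 ± 0.08, whereas the cystine transporter gene Slc7a11 was higher (1.11 ± 0.16).

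Heat shock chaperones were lower in 15 of 17 cases, with a median of -0.63. Cryab, a small heat shock protein of muscle, stood at 375, 345, 394 and 339 CPM in the 2D-2D libraries and at 39.7, 28.9, 29.2 and 32.2 CPM in the 3D-3D libraries. The 3D-3D libraries were all lower (-3.48 ± 0.11). Chaperones of the endoplasmic reticulum changed little, and Hspa5, their best known member, did not pass the test (0.01 ± 0.06). Hspa5 was called higher with library size alone (0.33). Of that list 14 of 22 were lower and 4 higher, but 3 and 8 when scaled by library size alone.

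Energy genes were split. Subunits of the respiratory chain were lower in 23 of 32 cases and higher in 3 (median -0.42), and ribosomal proteins lower in 25 of 36 and higher in 4 (median -0.40). Scaled by library size alone these counts were 10 lower and 9 higher, and 12 lower and 8 higher. In the glycolysis and hypoxia list 10 of 26 were higher and 8 lower, or 12 and 4 with library size alone. Gapdh, a core enzyme, was lower (-0.85 ± 0.16), while the hypoxia targets Ndrg1 (1.66 ± 0.28), Egln3 (1.58 ± 0.32, and 0.96 without 3D-3D replicate 3) and Bnip3 (1.13 ± 0.21) were higher. Ndrg1 stood at 132, 125, 131 and 131 CPM in the 2D-2D libraries and at 279.8, 270.3, 734 and 353 CPM in the 3D-3D libraries. Replicate 3 of 3D-3D was well above the other libraries, and it also had the largest share of counts for the list (5.01%, against 3.13% to 3.64% in the other 3D-3D libraries).

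Lysosomal genes were higher in 20 of 32 cases and lower in 5 (median 0.29, or 27 and 2 with library size alone), with the protease genes Ctss (2.35 ± 0.10) and Ctsl (1.74 ± 0.07) and the proton pump subunit gene Atp6v0d2 (2.27 ± 0.12) the most changed, beside the larger share of macrophage markers. Lipid storage genes were higher in 10 of 15 cases, with the lipase gene Lpl at 2.10 ± 0.09 and the adipogenic receptor gene Pparg at 1.44 ± 0.15. Genes for cholesterol and fatty acids were divided (12 higher and 13 lower of 30), and scaling by library size alone turned the majority (15 and 12). The cholesterol exporter gene Abca1 was higher (1.62 ± 0.14) and Fasn, fatty acid synthase, lower (-1.45 ± 0.10).

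In retinoid metabolism the synthesis enzyme gene Aldh1a2 stood at 233, 224, 229.6 and 234 CPM in the 2D-2D libraries and at 28.8, 27.1, 19.3 and 20.4 CPM in the 3D-3D libraries. It was lower in each 3D-3D library (-3.27 ± 0.12), whereas the retinoic acid degrading enzyme gene Cyp26b1 (2.64 ± 0.21) and Rdh10, which makes retinal (1.64 ± 0.09), were higher. Of 19 genes 10 were higher and 5 lower. The steroid enzyme gene Hsd3b1 stood at 10.1 ± 1.78 CPM in 2D-2D with no count in 3D-3D, at least 297-fold lower by that floor, and its near copy Hsd3b6 stood at 73.1 ± 1.68 and 0.0113 ± 0.0225 CPM. These copies resemble each other so closely that their counts are uncertain. The glucocorticoid activating enzyme gene Hsd11b1 was higher (1.90 ± 0.21). Ace, angiotensin-converting enzyme, rose from 2.66 ± 0.186 to 120.3 ± 28.0 CPM (5.49 ± 0.17) and Agt, angiotensinogen, from which its substrate is cut, from 0.111 ± 0.187 to 21.2 ± 1.73 CPM, while the adrenergic receptor gene Adra1d fell from 13.1 ± 0.502 to 0.104 ± 0.102 CPM (-6.92 ± 0.39, and -7.62 without 3D-3D replicate 1).

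The remaining lists are given by their counts. Higher and lower were 4 and 4 of 11 hyaluronan genes, 5 and 5 of 11 genes of plasminogen activation, and 9 and 7 of 18 genes of vessel growth. The counts were 10 and 6 of 21 for Notch and Hedgehog, 10 and 15 of 27 for guidance genes, and 9 and 4 of 18 for the circadian clock. In angiotensin and adrenergic signalling they were 5 and 4 of 12. NRF2 targets and metallothioneins had 5 higher and 13 lower of 24, steroid genes 6 and 9 of 16, and chromatin genes 10 and 15 of 33. Scaled by library size alone, the majority of these 3 lists turned, to 9 and 7, 7 and 6, and 13 and 11. Further inflammatory lists were mostly higher, with 13 and 2 of 18 prostaglandin genes, 13 and 3 of 20 NF-kB targets, 14 and 4 of 21 genes of the interleukin-6 family and colony-stimulating factors, and 12 and 5 of 17 CC chemokines and receptors. Among cell type lists not yet counted, alveolar fibroblast markers had 6 and 4 of 15, adventitial ones 10 and 6 of 17 and fibrosis-associated ones 8 and 6 of 15. Mesothelial markers had 7 and 2 of 12 and Schwann, nerve and muscle ones 3 and 2 of 7. With library size alone the counts were 12 and 2 for the clock, 17 and 1 for NF-kB targets, 16 and 1 for prostaglandin genes and 5 and 2 for the Schwann, nerve and muscle list.

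Immediate early genes were split, with 8 of 25 higher and 12 lower, and 11 and 8 when scaled by library size alone. Fos was higher (2.18 ± 0.28) and so was Egr2 (2.54 ± 0.16), whereas Fosl1 (-0.80 ± 0.13) and Klf4 (-1.33 ± 0.12) were lower. The AP-1 site (TGACTCA or TGAGTCA, both strands) stood in 4.32% of tested genes' windows, in 6.71% of those at least 2-fold higher and in 3.92% of those at least 2-fold lower.

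The sustained cultures were then set beside the cultures that ended on the same substrate but began on the other one, to see which of the differences also part cells with different first cultures. These comparisons share the 3D-3D or the 2D-2D libraries with the one above, and no library was taken at the change of culture. Between 3D-3D and 2D-3D 15.0% of tested genes were higher in 3D-3D and 12.7% lower. Between 2D-2D and 3D-2D 10.6% were higher in 2D-2D and 9.74% lower, or 865 and 1887 genes when scaled by library size alone against 1458 and 1335 with TMM.

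Of 18 contractile genes 3 were higher and 2 lower in 3D-3D than in 2D-3D. The Acta2 level was 709 ± 129.9 CPM in the 2D-3D libraries and 10280.0 ± 420.4 CPM in the 3D-2D libraries, and 3D-3D minus 2D-3D was -0.41 ± 0.17 (edgeR adjusted p = 0.0932). The corresponding difference of 2D-2D minus 3D-2D was 0.45 ± 0.17 (edgeR adjusted p = 0.0766), with 8 of 18 contractile genes higher in 2D-2D, or 3 when scaled by library size alone. Tnc averaged 190.1 ± 18.7 CPM in the 2D-3D libraries and 222 ± 32.1 CPM in the 3D-3D libraries, a difference of 0.23 ± 0.11 that did not pass the test (edgeR adjusted p = 0.158).

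Some matrix genes differed between cultures with the same second substrate. Col13a1 averaged 5.03 ± 0.892 CPM in the 3D-2D libraries and 5.79 ± 0.736 CPM in the 2D-3D libraries, and 3D-3D was above 2D-3D by 3.25 ± 0.15. Dcn was higher in 3D-3D than in 2D-3D (1.35 ± 0.10) and Col1a1 lower (-1.13 ± 0.12). Collagen maturation genes were higher in 2D-2D than in 3D-2D in 16 of 22 cases, and elastic fibre genes in 13 of 17. Thy1 was lower in 3D-2D than in 2D-2D (2D-2D minus 3D-2D 2.01 ± 0.10) and lower in 3D-3D than in 2D-3D (-1.16 ± 0.10).

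Inflammatory and epithelial genes also parted cultures with the same second substrate. Lcn2 stood at 72.7 ± 14.7 CPM in 2D-3D, near its 2D-2D level, and 3D-3D was above 2D-3D by 3.95 ± 0.14. Il1b was above 2D-3D by 1.73 ± 0.14 and Ppbp by 2.95 ± 0.14. Interferon-stimulated genes were lower in 3D-3D than in 2D-3D in 20 of 23 cases, and higher in 2D-2D than in 3D-2D in 17. Krt7 stood at 2.22 ± 0.534 CPM in 2D-3D against 39.9 ± 14.8 CPM in 3D-2D, and 3D-3D was above 2D-3D by 6.41 ± 0.38. Macrophage markers were lower in 2D-2D than in 3D-2D in 23 of 25 cases, and in 3D-3D 13 were lower and 3 higher than in 2D-3D. Cholesterol and fatty acid genes, divided between the sustained cultures, were higher in 3D-3D than in 2D-3D in 24 of 30 cases and lower in 1. Lysosomal genes were lower in 3D-3D than in 2D-3D in 25 of 32 cases, beside the macrophage counts just given, and the part of those cells was not tested.

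**Figure D5:**
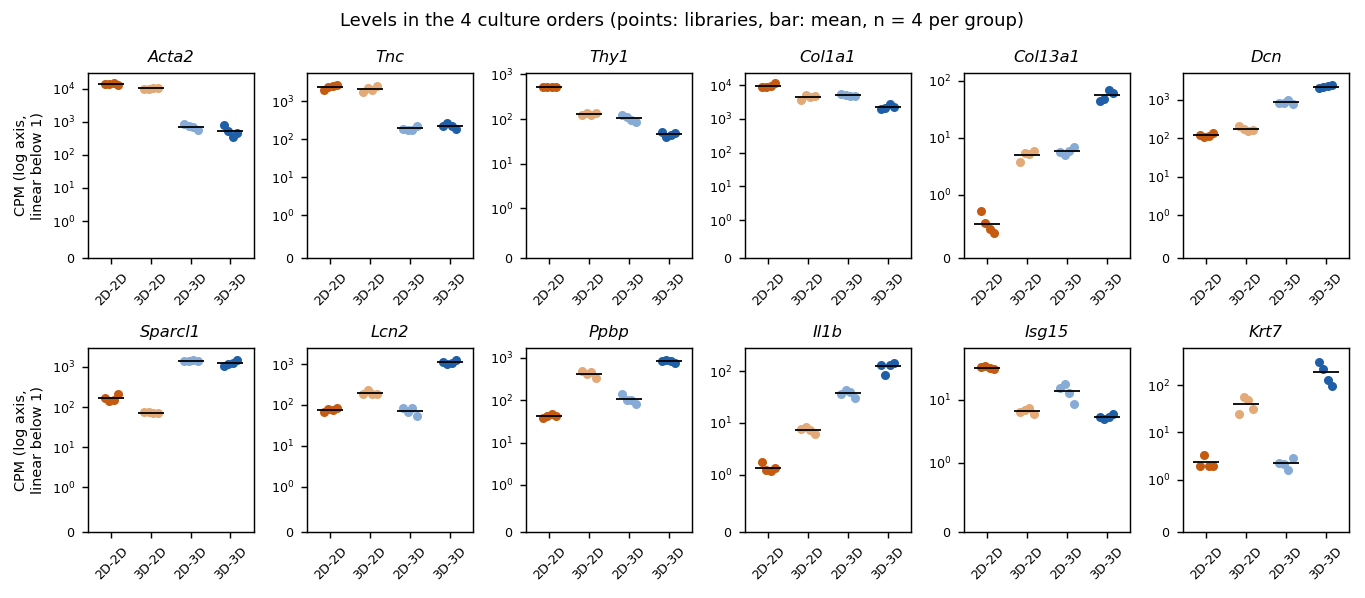
Each panel shows the level of one gene in CPM, on a log axis that is linear below 1, in the 4 culture orders, with one point per library and a bar for the mean (n = 4 per group). Acta2 and Tnc are high in both orders that ended on 2D, while Krt7 is higher in both orders that began in 3D and Col13a1 takes intermediate values in both switched orders.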

How the data were processed

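Bulk RNA-seq was done on cultures of mouse lung cells, with 4 libraries for each of 4 culture orders. Reads were aligned to GRCm38.p6 with HISAT and Bowtie2, per the submitters' processing notes. The counting program was not given in the sources used here, nor the use of strand, so overlapping and antisense genes and near-identical copies (the Hsd3b, Hspa1 and Krt6 families) carry uncertain counts. The authors deposited estimated counts of reads per gene, not normalized, of which 5.98% were not whole (tolerance 1e-06). Of 67228 rows 18012 held values. The 5 columns of group averages were not used.

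Counts were rounded and tested with edgeR 4.0.16 (R 4.3.3) in 1 quasi-likelihood fit over 16 libraries, with the default expression filter and TMM scaling. Of the genes with values 13704 were tested, and p-values were adjusted by the Benjamini-Hochberg method over all of them, with calls at 0.05. Each change is a log2 fold change ± SE, the SE being the change over the square root of F. CPM use effective library sizes, and ± beside CPM is the SD (n = 4). Depth over these 16 libraries was 19.67 to 20.33 M counts. Nothing states that replicates came from separate animals or cultures, so p-values measure the spread between these samples, which may be technical.

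The 72 lists (1411 distinct genes, 80 of them in more than 1 list) and the members were chosen with earlier results of these data known. The text names the 10 most changed genes each way (at least 10 CPM in a group, no overlap), up to 4 each way and the 3 most abundant per list, the first 4 of each cell type list and 38 landmark genes, except a few that are not reported here. Of 249 named genes 40 were instead chosen after their values were seen: Ajuba, Axin2, Bnip3, Cdkn1b, Cnn2, Ctsk, Cxcl10, Cxcl5, Cyp26b1, Ddr2, Des, F3, Fermt2, Fgf7, Fosl1, Gdf6, Hspa5, Lats1, Lats2, Ldb3, Lima1, Loxl2, Mkl2, Mmp3, Myh11, Myl9, Mylk, Notch3, Parva, Piezo2, Psph, Ptpn14, Pxn, Rdh10, Scai, Sun2, Tgfbr2, Vcl, Wnt5a and Wwc1. Promoter windows came from RefSeq, with 10841 tested genes matched by gene ID. Tested on simulated data with 13504 genes, the fit recovered 16%, 60%, 92% and 100% of 50 genes each changed 1.25-fold, 1.5-fold, 2-fold and 4-fold, with 4 false calls. The alternatives were other scalings, filters, sets of libraries and thresholds, limma-voom (limma 3.58.1), DESeq2 1.42.0, a replicate block and leaving out each library.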

Additional observations from a re-analysis of the deposited data

Results flagged for a closer look

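For each named gene, the 4 libraries of a group were examined for a value whose gap to the nearest other was a larger part of the whole range than Dixon's critical value. The shares of counts of the 14 cell type lists and of the glycolysis and hypoxia list were examined in the same way. Of 528 such groups of 4 values, genes and lists together, 44 (8.33%) met it, where chance flags about 1 in 20 groups. All that met it were single genes. Replicate 3 of 3D-3D held 18 of them and replicate 4 of 2D-2D 10, against 1 to 4 in each other library. The values below are CPM, with the range of the other libraries of the same group.

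In 3D-3D replicate 3 the genes that met it lay in both directions, and the macrophage genes Csf1r and Ctss and the hypoxia target Egln3 were among those above the other libraries. Cdkn1a stood at 632 against 294 to 304, and Csf1r at 622 against 379 to 421. Ctss stood at 973 against 718 to 736, and Cyp26b1 at 128 against 60.8 to 69.1. Egln3 stood at 496 against 141 to 172, and Fosl1 at 131 against 82.1 to 83.3. Igf1r stood at 26.9 against 18.5 to 19.68, and Itgb3 at 18.9 against 14.7 to 14.9. Notch3 stood at 27.1 against 14.5 to 15.99, and Pxn at 227 against 207 to 209. Atf4 stood at 303 against 313 to 315, and Cd3e at 0 against 0.0441 to 0.0456. Cdh2 stood at 29.2 against 34.3 to 34.4, and Fasn at 146 against 178 to 185. Fgf7 stood at 46.9 against 72.1 to 76.0, and Parva at 159 against 190.0 to 196. Postn stood at 12.3 against 18.5 to 19.3, and Yap1 at 46.0 against 59.3 to 61.8.

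In 2D-2D replicate 4 most such values were above the rest of the group. Ccl2 stood at 403 against 369 to 374, and Cxcl5 at 35.6 against 29.9 to 30.0. Fbln2 stood at 2071 against 1606 to 1681, and Lima1 at 402 against 343 to 353. Mmp8 stood at 156 against 119 to 125, and Npnt at 189.6 against 129 to 138. Pdgfra stood at 203 against 164 to 170.3, and Sfrp1 at 426 against 342 to 355. Tgfbr2 stood at 207 against 180.0 to 181, and Cd74 at 3.36 against 3.68 to 3.73.

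In 3D-3D replicate 1 the keratin gene Krt6a stood above the rest and the Wnt target Axin2 below it. Krt6a stood at 46.0 against 10.6 to 15.6, and Axin2 at 4.79 against 6.66 to 7.02.

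In 3D-3D replicate 2 all 3 such values were above the others. Crim1 stood at 14.1 against 11.5 to 11.67, and Cxcl10 at 2.25 against 1.13 to 1.28. Lrrc32 stood at 100.3 against 95.9 to 96.6.

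In 3D-3D replicate 4 the laminin chain gene Lama3 was below the other libraries. Hsd3b6 stood at 0.0450 against 0 in each other library, and Mfap2 at 253 against 186 to 196. Rdh10 stood at 82.1 against 70.1 to 71.6, and Lama3 at 7.70 against 15.5 to 16.8.

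In 2D-2D replicate 1 such values were near 0 or close to the others. Ly6g stood at 0.0571 against 0 in each other library, and Mfap2 at 55.01 against 48.2 to 49.2. Thy1 stood at 532 against 516 to 517, and Cpa3 at 0 against 0.0557 to 0.0566.

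In 2D-2D replicate 2 the genes that met it were low in the whole group. Agt stood at 0.390 against 0 to 0.0560, and Krt7 at 3.40 against 1.92 to 1.96.

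In 2D-2D replicate 3 the gene that met it was the endothelial marker Pecam1. Pecam1 stood at 1.47 against 0.800 to 0.891.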

How the results depend on the processing

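With library size alone, the median log2 change of all tested genes shifted by 0.32 and the 3D-3D against 2D-2D calls became 7289 higher and 2996 lower, in place of 5294 and 4784, and 8300 of the calls were shared. Upper-quartile scaling moved the median by 0.15 and gave 6194 higher and 3951 lower. Small changes should be read relative to these shifts. Cdh11 (0.30), not called in the reported fit, changed sign and passed the test with library size alone, where Atf4, Fgf7, Mkl2, Tgfb1 and Wwtr1 lost their calls and 24 counts of list members moved by over 1.5 times. Against a minimum change of 2-fold, 2628 genes were called, 1650 higher and 978 lower, and 90 counts of list members moved by over 1.5 times. The number of calls was 9695 with the 8 libraries alone, 10008 with the replicate block, 10070 by limma-voom and 10406 by DESeq2. Leaving out 1 library gave 9683 to 10046 calls, 5071 to 5273 of them higher and 4612 to 4784 lower.

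For 3D-3D against 2D-3D, 3793 genes were called, and 3438 to 4048 without 1 library. For 2D-2D against 3D-2D, 2793 were called, and 2234 to 2459 without 1 library. Those higher in 2D-2D numbered 1458, 865 with library size alone, and 947 to 1280 without 1 library, the lowest without 3D-2D replicate 1.

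Same-numbered libraries of 3D-3D and 2D-2D did not deviate together (r = 0.0479, -0.0576, -0.0382 and 0.0273), so the numbers were not taken as pairs, and the replicate block gave 3692 calls for 3D-3D against 2D-3D and 2676 for 2D-2D against 3D-2D.

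Over 245 tested genes named in the text and 19 alternatives, 4583 of 4655 comparisons kept their side of the threshold. A call was lost in 52 (43 against a minimum change of 2-fold) and gained in 19, and 1 changed sign with a call. Changes of sign in genes called in neither fit were counted as kept. Of the gains, 7 came with library size alone, all of them higher (Cd68, Ddr2, Hspa5, Lats1, Notch3, Ptgs2 and Pxn). Upper-quartile scaling gave 6, the same genes without Ddr2. Lox was called with no filter (-0.43), by limma-voom (-0.45), and without 3D-3D replicate 3 (-0.67) or 2D-2D replicate 2 (-0.49). Ptgs2 was called without 3D-3D replicate 4 (0.31) or 2D-2D replicate 3 (0.34). The causes were not tested. Changes below 1.5-fold were often missed on simulated data, but few genes were changed there, so this does not carry over to the data. The smallest log2 change called in the data was 0.15 in size.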
